A study of Homo sapiens with 8 samples.

Results

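The genes described are 8 chemokines that act mainly on monocytes and lymphocytes rather than on neutrophils: CCL2, CCL20, CCL5, CCL28, CX3CL1, CXCL10, CXCL11 and CXCL16. They were taken by name from a table of 59641 genes, as chemokines other than the ligands of the receptor CXCR2, and all 8 were found once each. The members were chosen by family, with their FPKM in both groups and the log2 change between the groups already known. That difference is therefore given here as a description, and the adjusted p-values printed only place each gene in the fit over all genes.

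Poly(A) RNA of HCT116, a long-established colorectal cancer line of human origin, was sequenced in 4 control libraries without hFGF19 and in 4 libraries of cells given hFGF19 for 72 hours at a dose of 100 ng/ml. FGF19 is an endocrine growth factor of the gut. The controls carry the treatment label "none", and the labels do not give their time in culture, or a vehicle. Both groups are the same single line in culture. The labels number the libraries 1 to 4 in each group and do not say what a number stands for. The spread behind the p-values may therefore be technical only.

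Chemokines are small secreted or membrane-anchored proteins that guide leukocytes through G protein-coupled receptors. Gut epithelial cells make several of them. CCL20 draws CCR6-bearing lymphocytes and dendritic cells to the mucosa, and CCL28 draws CCR10-bearing plasma cells. CCL2 recruits monocytes through CCR2. CXCL10 and CXCL11 act on CXCR3 of activated T cells and are classical interferon-induced genes, and transcription of many chemokine genes is driven by NF-kB. CX3CL1 and CXCL16 are made as membrane-anchored proteins that the proteases ADAM10 and ADAM17 release.

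Sequences upstream of the gene start are shown for CCL20, which was expressed, and for CXCL10 and CXCL11, which were at the limit of detection, because all carry a match to the kB consensus of NF-kB sites. The sequences are from RefSeq on build GRCh38.p14, 250 bases before the start on the gene's strand, 5′ to 3′. Capitals mark motif matches.
CCL20: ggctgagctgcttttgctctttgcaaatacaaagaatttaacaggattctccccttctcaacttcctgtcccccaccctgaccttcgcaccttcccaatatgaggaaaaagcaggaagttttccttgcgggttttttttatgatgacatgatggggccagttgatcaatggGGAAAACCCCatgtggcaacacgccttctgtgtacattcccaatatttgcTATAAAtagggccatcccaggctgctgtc
CXCL10: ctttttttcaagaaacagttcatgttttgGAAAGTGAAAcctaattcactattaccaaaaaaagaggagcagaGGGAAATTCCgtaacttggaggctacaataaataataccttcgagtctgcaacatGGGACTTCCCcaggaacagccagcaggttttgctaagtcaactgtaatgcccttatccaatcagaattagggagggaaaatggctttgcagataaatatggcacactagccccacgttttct
CXCL11: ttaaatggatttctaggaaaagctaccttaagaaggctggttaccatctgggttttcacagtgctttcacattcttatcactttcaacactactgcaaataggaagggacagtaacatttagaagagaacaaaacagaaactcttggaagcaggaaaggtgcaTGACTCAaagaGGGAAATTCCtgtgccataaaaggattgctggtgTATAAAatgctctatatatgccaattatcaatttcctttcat

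The CCL20 window (chr2:227813592-227813841, plus strand) held 1 kB consensus match, read on the opposite strand, from -79 to -70 relative to the start, and a TATA box from -29 to -24. The CXCL10 window (chr4:76023498-76023747, minus strand) held 2 kB matches, from -177 to -168 and from -122 to -113, and 1 match to an interferon response core, GAAANNGAAA, from -221 to -212. The CXCL11 window (chr4:76036071-76036320, minus strand) held 1 kB match from -76 to -67, an AP-1 site from -87 to -81 and a TATA box from -42 to -37. The kB consensus, searched on both strands, was in 5.21% of 35116 upstream windows of the same length. AP-1 (TGACTCA or TGAGTCA, which are the same site on opposite strands) was in 4.20%, GAAANNGAAA on either strand in 3.02% and TATAAA on the gene's strand in 6.80%. The marked matches do not overlap each other. A match says only that these letters are present. CCL28 has an upstream window at each of its starts in that table, with no match to any of these motifs. CCL2, CCL5, CX3CL1 and CXCL16 are named without a sequence.

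The expression values are the FPKM that the authors deposited, read numbers scaled to the length of the gene and to the total of the library, so levels of different genes can be set side by side only as far as the length used for each gene holds. Of the 8 genes, 4 averaged 1 FPKM or more over the 8 libraries: CCL2, CX3CL1, CXCL16 and CCL20. The other 4 lay far below it. Totals per library were between 17121190 and 20752753 reads counted to genes, with no detectable difference between the groups (exact two-sided permutation test, p = 0.83, n = 4 against 4). Read numbers are given beside low values, and limits based on them cover counting error only, since PCR copies are not known to have been removed.

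The cells carried the defining genes of an epithelial line, few leukocyte genes, and some genes listed as fibroblast or endothelial markers. EPCAM was at 27.9 ± 2.59 FPKM in the controls and KRT8 at 1488 ± 25.6 FPKM (SD, n = 4), while the intestinal genes CDX2 and VIL1 had 2 and 30 reads over the 4 controls. Of 7 markers of T and NK cells 0 were at 1 FPKM or more, and CD3D and CD3E had no read in any library. The sum of the list was 0.90 to 1.09 FPKM in the controls and 0.415 to 0.867 with hFGF19, lower in every hFGF19 library than in every control. This sum rests on few reads, over 4 libraries each 29 and 21 for GZMB, 23 and 13 for PTPRC and 10 and 2 for NKG7. Of all single genes tested, 1.65% had groups without overlap and hFGF19 lower, and sums of so few reads were not compared. The part of this sum in the chemokine values was not tested. Of 7 monocyte and macrophage markers 2 averaged 1 FPKM or more, CSF1R and CD14. CSF1R was at 4.66 ± 0.306 FPKM in the controls and 4.14 ± 0.456 FPKM with hFGF19, on 526 and 465 reads. It was higher in 0 of the 4 same-numbered pairs, and the share of all genes arranged so was not counted. CD14 was at 0.935 ± 0.178 and 1.45 ± 0.426 FPKM, on 77 and 117 reads. It was higher in each of the 4 pairs, as were 6.66% of all genes tested. Neither gene passed (adjusted p = 0.9998 for both, limma), and the part of CD14 in the CCL2 values was not tested. AIF1 had no read, CD68 had 1 read in each group, and the sum of that list was 5.76 to 7.22 FPKM in the controls and 5.54 to 6.91 with hFGF19. The monocyte sums overlapped between the groups. Of 5 fibroblast markers 1 averaged 1 FPKM or more, COL1A1, at 23.0 FPKM in the controls and 22.5 with hFGF19. Of 4 endothelial markers 2 did, PECAM1 (4.27 and 5.09 FPKM) and CDH5 (3.72 and 3.87 FPKM). Of 5 adipocyte markers, checked because the RNA protocol in the labels speaks of adipose material, 0 were above 1 FPKM. FGFR4, the main receptor of FGF19, was at 51.4 ± 2.32 and 44.9 ± 5.51 FPKM, and the co-receptor KLB had 22 and 29 reads over 4 libraries each.

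CCL2 (ENSG00000108691), the monocyte chemokine, was the most abundant of the 8 genes. In the controls it was at 24.4, 28.4, 27.5 and 22.0 FPKM in replicates 1 to 4, and with hFGF19 at 33.8, 40.1, 41.7 and 36.6 FPKM. Every hFGF19 library stood above every control, with 5.42 FPKM between the highest control and the lowest hFGF19 library. The mean went from 25.6 ± 2.92 to 38.1 ± 3.51 FPKM (SD, n = 4), a ratio of 1.49. The values rest on 376 to 466 reads per control library and 591 to 643 reads with hFGF19. In bulk RNA, more cells expressing a gene and more of its RNA per cell cannot be told apart.

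CCL20 (ENSG00000115009), the CCR6 ligand of gut epithelium, showed the same arrangement at a lower level. The controls were at 4.98, 4.52, 4.94 and 6.15 FPKM and the hFGF19 libraries at 8.74, 7.24, 9.60 and 8.79 FPKM. The groups did not overlap, and 1.08 FPKM separated the highest control from the lowest hFGF19 library. The mean was 5.15 ± 0.703 FPKM in the controls and 8.59 ± 0.987 FPKM with hFGF19 (SD, n = 4), a ratio of 1.67. With 58 to 84 reads per control library and 84 to 123 with hFGF19, counting error alone gives an SD of 0.636 and 0.827 FPKM, close to the spread seen.

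CX3CL1 (ENSG00000006210), the membrane-anchored ligand of CX3CR1, had a higher mean with hFGF19 but overlapping groups. It was at 12.04, 10.7, 11.3 and 13.0 FPKM in controls 1 to 4 and at 16.9, 13.6, 11.01 and 15.9 FPKM in hFGF19 1 to 4. Library hFGF19 3 lay within the control range, and the other 3 hFGF19 libraries lay above it. The means were 11.8 ± 0.998 and 14.3 ± 2.61 FPKM (SD, n = 4), a ratio of 1.22. The spread with hFGF19 was wider than counting error, which gives an SD of 0.487 FPKM on 637 to 1136 reads.

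CXCL16 (ENSG00000161921), the membrane-anchored ligand of CXCR6, was at nearly the same level in both groups. The controls were at 9.06, 8.10, 7.97 and 9.78 FPKM and the hFGF19 libraries at 8.79, 8.12, 7.64 and 9.47 FPKM. The groups overlapped almost fully, and libraries 1 and 4 were above libraries 2 and 3 in each group. The means were 8.73 ± 0.851 and 8.50 ± 0.797 FPKM (SD, n = 4), a ratio of 0.974.

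**Figure D1:**
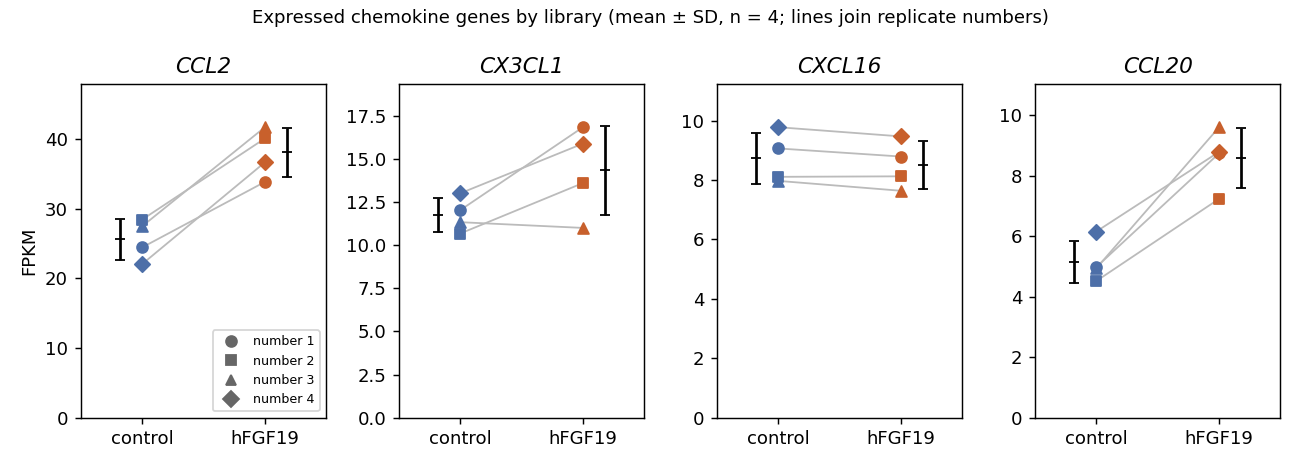
FPKM of CCL2, CX3CL1, CXCL16 and CCL20 (vertical axes, each from 0) in 4 control and 4 hFGF19 libraries. Symbols mark the replicate number, lines join libraries of the same number, and bars are mean ± SD. CCL2 and CCL20 have every hFGF19 library above every control, CX3CL1 has 3 of 4 above, and the CXCL16 lines run nearly level.

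In limma's moderated test on log2(FPKM + 1) over 14100 genes, with Benjamini-Hochberg adjustment, 0 of the 4 chemokine genes tested passed an adjusted p below 0.05, where 0.106% of all genes passed. The log2 change, hFGF19 minus control, was 0.56 ± 0.0911 (SE) for CCL2 and 0.64 ± 0.105 for CCL20, and the adjusted p was 0.0694 for each (limma). That of CX3CL1 was 0.25 with a 95% confidence interval of -0.01 to 0.51, and that of CXCL16 was -0.03 with an interval of -0.23 to 0.16 (adjusted p = 0.9998 for both, limma). At an unadjusted p below 0.05, where 4.23% of all genes lay, there were 2 of the 4, CCL2 and CCL20. With voom on read numbers worked out from the FPKM, 0 passed where 0.0993% of all genes did. By voom 3 had an unadjusted p below 0.05, the third being CX3CL1. The share of all genes at that unadjusted level was not counted for voom, so this count has no background.

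Both groups use the replicate numbers 1 to 4. Across genes, deviations of same-numbered libraries correlated at 0.11 to 0.30. Some libraries of different numbers correlated more, control 2 with hFGF19 3 at 0.44 and control 4 with hFGF19 1 at 0.41. Whether libraries of the same number belong together is therefore not known, and the blocked values below depend on it. In a limma fit that takes the replicate number as a block, CCL2 (adjusted p = 0.00336) and CCL20 (adjusted p = 0.0168) rose, 2 of the 4 genes tested, where 0.149% of all genes passed and 0.128% passed as higher. The same 2 passed with voom and the block (adjusted p = 2.20e-05 and 0.0256), where 0.291% of all genes passed and 0.213% passed as higher. CX3CL1 (blocked adjusted p = 0.587) and CXCL16 (blocked adjusted p = 0.973, limma) did not pass. In pairs of the same number, the log2 changes of CCL2 were 0.45, 0.48, 0.59 and 0.71, and those of CCL20 were 0.70, 0.58, 0.84 and 0.45. Both were thus higher in 4 of 4 pairs, as were 6.66% of all genes tested. For CX3CL1 the pairs gave 0.45, 0.32, -0.04 and 0.27, and for CXCL16 they gave -0.04, 0.00271, -0.05 and -0.04. Groups that do not overlap, with hFGF19 higher, were seen in CCL2 and CCL20 and in 1.48% of all genes, and with hFGF19 lower in none of the 4 and in 1.65% of all genes.

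**Figure D2:**
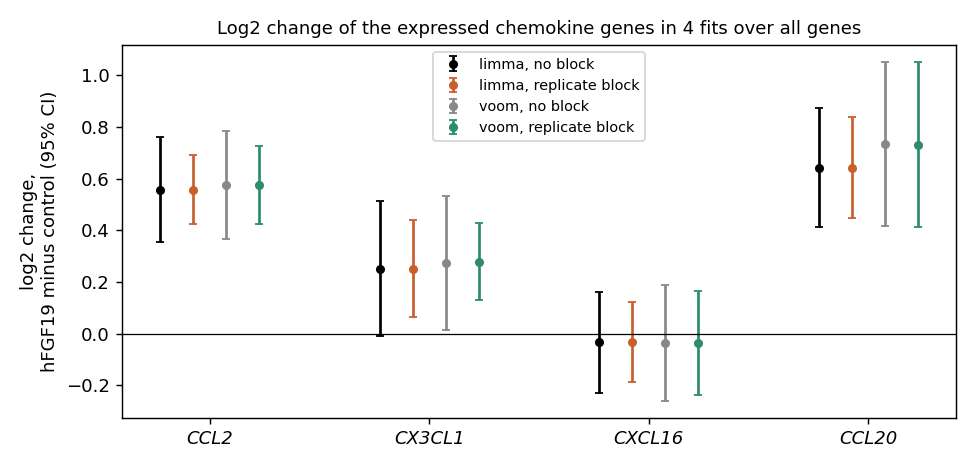
Log2 change, hFGF19 minus control, with 95% confidence intervals (vertical axis) for 4 chemokine genes in 4 fits over all genes: limma on log2(FPKM + 1) and voom on recovered reads, each without and with a block for the replicate number. The estimates move most for CCL20, from 0.64 by limma to 0.74 by voom without the block. With the block the intervals are narrower for CCL2, CX3CL1 and CXCL16 by both tools, and for CCL20 by limma only.

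The replicate numbers 1 and 4 also stood apart from 2 and 3 across the genes tested, so the changes were computed within each pair of numbers. Numbers 1 and 4 gave a log2 change of 0.58 for CCL2 and 0.58 for CCL20, and numbers 2 and 3 gave 0.53 and 0.71. For CX3CL1 the same values were 0.36 and 0.14, and for CXCL16 they were -0.04 and -0.03. The difference between the pairs of numbers in CX3CL1 was not tested. In fits of that size, 2 libraries against 2, none of the 4 genes passed the adjustment (limma).

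The 4 expressed genes differed in how their spread was shared between group and replicate number. When the spread of log2(FPKM + 1) over the 8 libraries was split, the group held 82.8% of the sum of squares for CCL2 and 84.9% for CCL20, and the replicate number held 14.6% and 10.9%. For CXCL16 the replicate number held 96.6% and the group 2.41%. CX3CL1 was between them, with 46.6% for the number and 35.2% for the group. The median over all genes tested was 53.4% for the number and 6.86% for the group. The replicate number has more levels than the group, so it takes the larger share of a spread without any pattern. The shares of number and group are therefore better set beside these medians than beside each other. They describe 8 libraries, and those for the group repeat the contrast with which the genes were chosen.

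**Figure D3:**
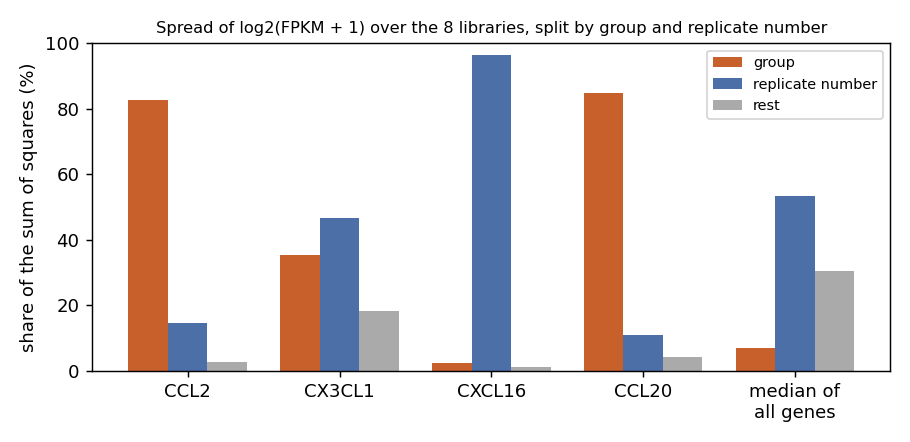
Share of the sum of squares of log2(FPKM + 1) over the 8 libraries (vertical axis, percent) that follows the group, the replicate number or neither, for 4 chemokine genes and as the median of all genes tested. The group bar is the tallest for CCL2 and CCL20, and the number bar is the tallest for CXCL16. The number has more levels than the group, so it takes the larger share of a spread without any pattern.

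Some members also varied against each other within groups. Libraries 2 and 3 had the higher CCL2 in both groups, whereas libraries 1 and 4 had the higher CXCL16 and the higher CX3CL1. Over deviations from the group means in the 8 libraries, Pearson's r was -0.88 between CCL2 and CXCL16, -0.85 between CCL2 and CX3CL1, and 0.83 between CX3CL1 and CXCL16. The pairs with CCL20 were weaker, with r of -0.53 for CCL2, 0.42 for CXCL16 and 0.13 for CX3CL1. These are descriptions over 8 libraries that share the numbering. The summed FPKM of the 8 genes varied little within a group. It was 50.8, 51.9, 51.7 and 51.0 in the controls and 68.3, 69.2, 70.1 and 70.9 with hFGF19.

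**Figure D4:**
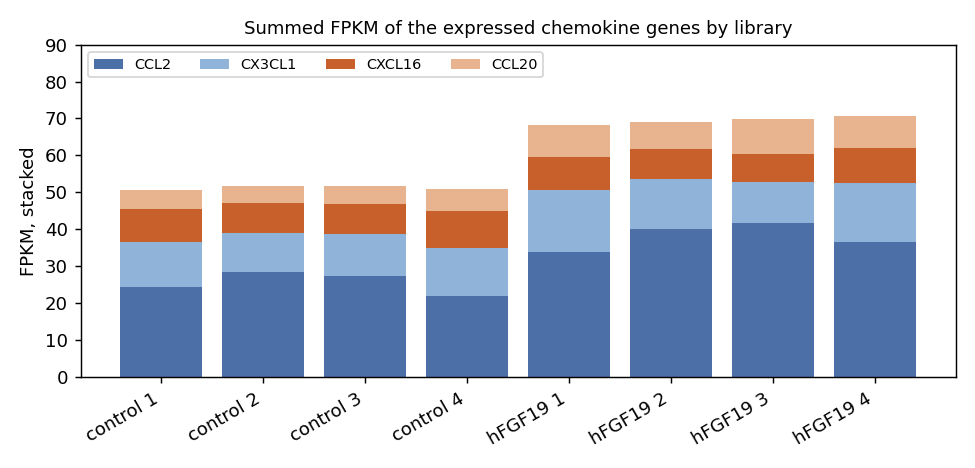
Summed FPKM (vertical axis) of CCL2, CX3CL1, CXCL16 and CCL20, stacked for each of the 8 libraries. The stacks are near 51 FPKM in the controls and 68.3 to 70.9 FPKM with hFGF19, and CCL2 is the largest block in every library.

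CCL2 made up 49.8% ± 5.24 of this sum in the controls and 54.6% ± 4.78 with hFGF19, and CCL20 10.03% ± 1.43 and 12.3% ± 1.37 (SD, n = 4). The share of CXCL16 was 17.0% ± 1.81 and 12.2% ± 1.11, with groups that did not overlap (15.4% to 19.2% and 10.9% to 13.4%), while its own FPKM were nearly the same in both. The sum it is divided by averaged 51.4 FPKM in the controls and 69.6 FPKM with hFGF19, so the lower share is no separate result on CXCL16. Set beside the CXCR2 ligands, the neutrophil chemokines of the same cells, the 8 genes were a minor part. They held 5.66% ± 0.305 of all chemokine FPKM in the controls and 4.45% ± 0.240 with hFGF19 (SD, n = 4). The CXCR2 ligands summed to 854 ± 42.7 and 1492 ± 77.4 FPKM, and all 5 of them above 1 FPKM passed the test, in which 0.106% of all genes passed. The median log2 change was 0.66 for those 5 and -0.01 over all genes, beside values from -0.03 to 0.64 for the 4 chemokines tested here.

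In the controls the order of levels was CCL2, CX3CL1, CXCL16 and CCL20, with ranges that did not overlap between neighbours. CCL2 was 2.17 times as high as CX3CL1, CX3CL1 was 1.35 times as high as CXCL16, and CXCL16 was 1.70 times as high as CCL20. With hFGF19 the last pair met, at 8.50 ± 0.797 FPKM for CXCL16 and 8.59 ± 0.987 FPKM for CCL20. These ratios depend on the length used. With the longest coding transcript as the length, the control means were 29.9 FPKM for CCL2 and 6.59 for CX3CL1, a wider gap, and with hFGF19 CCL20 stood above CXCL16, at 6.94 and 5.04 FPKM. Among all genes tested, the mean level of CCL2 was at percentile 71.2, CX3CL1 at 49.2, CXCL16 at 40.0 and CCL20 at 35.4.

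The other 4 genes were listed at or near 0, and no difference was detectable at this depth. CCL5 (ENSG00000271503), which attracts T cells and monocytes, had 4, 2, 0 and 0 reads in controls 1 to 4 and 2, 3, 0 and 2 reads with hFGF19, which is 0 to 0.203 FPKM. The table also lists AC015849.1, a transcript antisense to CCL5, on 12 and 5 reads. The strand setting of the counting is not known, so reads of these overlapping genes cannot be told apart. CCL28 (ENSG00000151882), the mucosal chemokine of plasma cells, had 3 reads in control 1 and 5 reads in hFGF19 3 and 0 in the other 6 libraries.

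The interferon-induced pair was the scarcest. CXCL10 (ENSG00000169245) had 1 read in each of control 2, control 4 and hFGF19 2, and 0 in the other libraries. CXCL11 (ENSG00000169248) had 1 read in control 3 and 0 in all others. For a library without a read, 3 reads set the limit, which is 0.123 to 0.143 FPKM for CXCL10 and 0.122 to 0.148 FPKM for CXCL11. No fold change is given for these 4 genes.

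**Figure D5:**
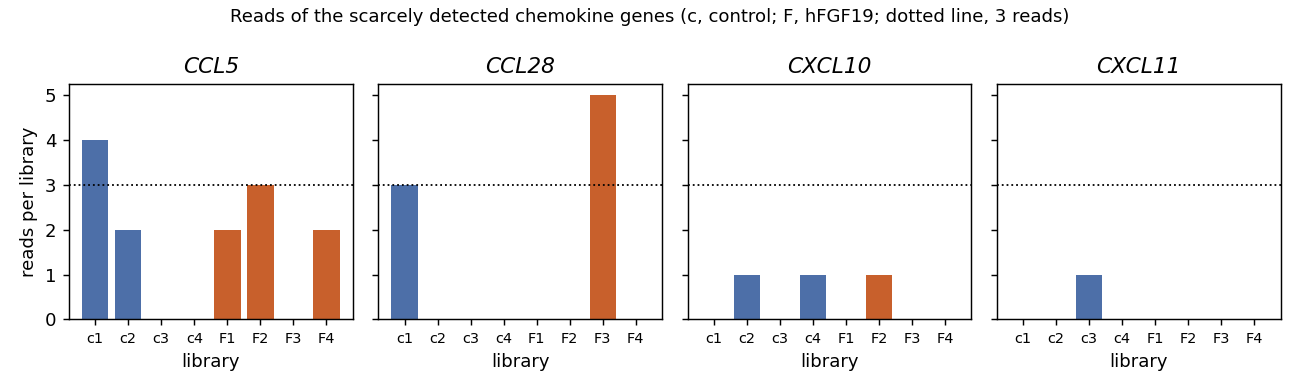
Reads per library (vertical axis) of CCL5, CCL28, CXCL10 and CXCL11 in controls 1 to 4 (c1 to c4) and hFGF19 1 to 4 (F1 to F4); the dotted line is at 3 reads. No bar exceeds 5 reads, and most bars are at 0.

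Genes that act around these chemokines were examined from lists chosen with earlier results of these data known. Of 31 other monocyte, lymphocyte, dendritic cell and eosinophil chemokines in the table, 12 had no read in any library and 1 was at 1 FPKM or more. That gene, CCL26, an eosinophil chemokine, was at 2.54 ± 0.827 and 3.50 ± 0.811 FPKM with overlapping groups (log2 change 0.36 ± 0.176, adjusted p = 0.9998, limma). CXCL9, the third ligand of CXCR3, had no read.

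Receptors for the 8 chemokines were scarce in these cells. Of 18 chemokine receptor genes 1 was above 1 FPKM, CXCR4, the CXCL12 receptor, at 14.9 ± 1.45 and 13.7 ± 1.28 FPKM (log2 change -0.12 ± 0.0859). CXCR4 had overlapping groups and did not pass (adjusted p = 0.9998, limma). CCR2, CCR6, CX3CR1, CXCR6 and CCR10, the receptors of CCL2, CCL20, CX3CL1, CXCL16 and CCL28, had 12, 9, 36, 36 and 23 reads over the 4 controls and 3, 2, 22, 53 and 25 with hFGF19. CXCR3, the receptor of CXCL10 and CXCL11, had 1 and 3 reads. ACKR3, an atypical receptor that binds chemokines without classical signalling, was at 3.13 ± 0.206 and 2.85 ± 0.188 FPKM. CCRL2, listed with the atypical receptors, was at 1.79 and 2.02 FPKM.

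Genes for proteins that process or hold chemokines ranged widely in level. ADAM10 was at 74.4 and 73.8 FPKM and ADAM17 at 23.6 and 21.7 FPKM, both with overlapping groups. DPP4, a protease that clips CXCL10, CXCL11 and CCL5, was at 3.59 and 3.41 FPKM, and the syndecan gene SDC2 was at 1.35 and 0.922 FPKM. Of the 8 genes of this list, which includes syndecans, 0 passed (limma and voom, 0 also at an unadjusted p below 0.05), and 2 of 8 had a log2 change above 0 under each scaling.

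Among 11 genes of NF-kB subunits and inhibitors, 0 passed by limma or voom. By limma 3 had an unadjusted p below 0.05, where 4.23% of all genes did. By voom 2 had one, and the share of all genes at that level was not counted for voom. The log2 change was above 0 in 9 of 11 genes, or 8 with TPM scaling, with a median of 0.08, and in 6158 of all 14100 genes, with a median of -0.01. NFKBIZ, a nuclear cofactor of NF-kB, was at 54.5 ± 1.18 and 64.1 ± 5.74 FPKM (adjusted p = 0.730, limma). NFKB2 was at 55.8 ± 2.60 and 61.0 ± 2.76 FPKM, and NFKBIA at 135 ± 5.38 and 150 ± 6.05 FPKM (adjusted p = 0.9998 for both, limma). In NFKBIZ, NFKB2 and NFKBIA the groups did not overlap, with hFGF19 higher, as in 1.48% of all genes tested. Of 8 AP-1 subunits 0 passed, 1 with an unadjusted p below 0.05 by either tool, and the median log2 change was 0.06. That 1 gene, by limma, was FOSL1, at 232 and 276 FPKM, named after its values were seen.

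Several interferon signalling genes were expressed at levels far above those of CXCL10 and CXCL11, but not all. IRF1 was at 28.4 and 27.4 FPKM, and the interferon gamma receptor gene IFNGR1 at 22.5 and 22.5. Of the 13 factors, 2 averaged below 1 FPKM: IRF9, at 0.825 and 0.736 FPKM, and the interferon alpha receptor gene IFNAR2, at 0.144 and 0.282 FPKM on 17 and 32 reads. Of 11 interferon pathway factors and 16 interferon-induced genes tested, 0 passed by limma or voom, and 0 had an unadjusted p below 0.05 with either. Their median log2 changes were -0.00391 and 0.00313, each of which changed sign with scaling. With the replicate block 2 of the 16 interferon-induced genes had an unadjusted p below 0.05, by limma and by voom, and 1 with TPM scaling (limma). The share of all genes at that level was not counted for these fits. IFIT3 was at 4.56 ± 0.172 and 4.02 ± 0.287 FPKM (adjusted p = 0.9998, limma). Its groups did not overlap, with hFGF19 lower, as in 1.65% of all genes tested. ISG15 was at 99.7 and 112 FPKM, while IDO1 and RSAD2, which are strongly interferon-dependent, had 1 and 3 reads in the controls and 0 with hFGF19.

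Of 7 genes for factors that act on the decay of chemokine mRNAs, 1 passed, where 0.106% of all genes did. ZC3H12A, an RNase that degrades inflammatory mRNAs, rose from 52.8 ± 3.58 to 78.5 ± 7.33 FPKM (log2 change 0.56 ± 0.0772, adjusted p = 0.0247, limma). The other 6 did not pass, among them ZFP36, which promotes decay of AU-rich mRNAs, at 16.9 and 17.2 FPKM, and ELAVL1, which stabilises them, at 38.2 and 35.9 FPKM.

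For each expressed chemokine the genes with the most similar pattern over the 8 libraries were taken from 7991 genes averaging 10 FPKM or more, by Pearson's r of log2(FPKM + 1). For CCL2 they were TPRA1 (r = 0.98), LCN2 (r = 0.98) and C9orf16 (r = 0.96). For CCL20 they were OLFM4, AHCY and CXCL8, each with r = 0.97. For CX3CL1 they were ADGRE5 (r = 0.97), IGFBP1 (r = 0.96) and H2AFX (r = 0.96), and for CXCL16 EFTUD2 (r = 0.97), CDYL (r = 0.96) and PPP3CB (r = 0.96). With so many genes and 8 libraries, values of this size describe the libraries and no more. After the group means were removed, EFTUD2 was again the gene most like CXCL16 (r = 0.98), and the most similar gene was CAPG for CCL2, CD274 for CCL20 and KIF3C for CX3CL1.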

How the data were processed

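The authors deposited 1 table of FPKM per gene and sample. The submitters' processing notes name HISAT2 2.0, StringTie 1.3.0 and the build hg19, without roles. The sources used here do not give the counting step, strand setting or filters. Reads were recovered from the FPKM steps: with whole read numbers and a whole length per gene, 100% of the 215933 values above 0 came out whole within 0.02 reads, adding up to 99.97% of each total.

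The main test was limma 3.58.1 (R 4.3.3) with a variance trend, two-sided, on log2(FPKM + 1) of genes averaging 1 FPKM or more, called at an adjusted p below 0.05 (Benjamini-Hochberg). The 1 FPKM added before the log2 understates changes of low genes. The change of CCL20 was 0.64 with 1 FPKM added and 0.73 with 0.1 FPKM added. Scripts were tested on simulated data. The members and lists were chosen with earlier results of these data known. The naming rule took all members, expressed and called list genes, and for each expressed member the 3 genes of highest correlation. Deviations of same-numbered libraries correlated at 0.30, 0.17, 0.17 and 0.11, so blocked values are given beside results they change, although some other numbers correlated more (control 4 with hFGF19 1, 0.41). Promoter windows of 4 members were in the RefSeq table. Some genes of the lists are not reported here by name.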

Additional observations from a re-analysis of the deposited data

Results flagged for a closer look

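Among 15 groups of 4 libraries with any read of an examined chemokine gene, 4 held a library whose gap to the nearest of its group, divided by the range of the group, exceeded the 95% limit of Dixon's test. All 4 are libraries with a few reads in groups otherwise without any, where the gap always equals the range, so the usual chance rate of 1 in 20 groups does not apply to them. CCL28 was at 0.103 FPKM on 3 reads in control 1 and at 0.171 FPKM on 5 reads in hFGF19 3. CXCL10 was at 0.0497 FPKM on 1 read in hFGF19 2, and CXCL11 at 0.0463 FPKM on 1 read in control 3. No such value was seen for CCL2, CCL20, CX3CL1, CXCL16 or CCL5.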

How the results depend on the processing

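CCL2, CCL20 and CX3CL1 had a log2 change above 0 under all 19 alternatives, with ranges of 0.49 to 0.61, 0.58 to 0.74 and 0.14 to 0.36. CXCL16 ranged from -0.081 to 0.017 and changed sign without control replicate 4 (0.017) and without hFGF19 replicate 3 (0.011). Of the 8 chemokine genes, 0 passed as reported and 2, CCL2 and CCL20, passed with the replicate block, both by limma and by voom on recovered reads with the block, an alternative chosen after seeing the data. Leaving out 1 library without the block gave 0 to 1, the latter being CCL20 without control replicate 4 (adjusted p = 0.0487, limma), with adjusted p of 0.0612 to 0.290 for CCL2 and 0.0487 to 0.314 for CCL20 over these fits. With no filter the adjusted p was 0.340 for CCL2 and 0.322 for CCL20, over more genes tested. Over all genes the count of 15 calls became 8 with replicate numbers 1 and 4 only, 9 with numbers 2 and 3 only, 41 by voom with the block (21 by limma with the block) and 7 to 13 without 1 library. It was 7 to 9 without control 1, control 3, hFGF19 1, hFGF19 2 or hFGF19 4. The other alternatives gave 10 to 14. The block changed no other call among the genes and lists described. Depth limits CCL20, on 58 to 123 reads per library, and leaves CCL5, CCL28, CXCL10 and CXCL11 without a testable difference.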

Other observations

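The lengths behind the deposited FPKM could be read from the data. For 97.5% of 35972 genes the length lay within 1 base of the mean length of all transcripts of the gene in GENCODE release 29, a GRCh38 annotation, whereas the processing notes name hg19. That mean includes retained-intron and other non-coding transcripts: it was 866 bases for CCL2, 678 for CCL20, 1316 for CXCL16 and 3248 for CX3CL1. The longest coding transcripts of these genes in that release have 741, 839, 2222 and 5796 bases. With those lengths, an alternative chosen after seeing the data, the control means were 29.9 FPKM for CCL2, 4.16 for CCL20, 5.17 for CXCL16 and 6.59 for CX3CL1. The order in the controls was the same, and CCL2 then stood further above CX3CL1. With hFGF19, CCL20 and CXCL16 were level by the deposited values and stood at 6.94 and 5.04 FPKM by these lengths. The choice of length scales a gene by 1 factor in all libraries, so ratios between the groups do not depend on it.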
